A study of Mus musculus with 12 samples.

Results

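The baseline liver transcriptome of glucocorticoid receptor knockout mice that had received only phosphate-buffered saline (PBS) is described here from 4 one-colour arrays, each hybridised with 1 liver RNA sample. They were chosen by their labels, as the 4 arrays of the PBS group among 12 arrays in the series. The animals are labelled as male, C57BL/6, 3 months old and GR knockout, and the series describes them as liver knockouts of GR, the glucocorticoid receptor encoded by Nr3c1. The other arrays belong to livers given a vector and are not used here. The 4 PBS samples share the strain, sex, age, genotype and tissue, and the labels number them without saying whether they are separate animals, which means that their spread may be in part technical. For brevity each sample is called a liver. The driver of the deletion, the deleted part of the gene, the hour at which the livers were taken and the feeding state are not stated in the labels. No wild-type liver is among the samples, so what follows is a description of levels and of their spread, with no comparison between groups and no test of a difference. Dixon's ratio is used only to point out a single liver that lies apart.

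The glucocorticoid receptor is a nuclear receptor that, when it binds corticosterone, moves to the nucleus and changes the transcription of genes for gluconeogenesis, amino acid breakdown, the acute phase response and clock timing. Liver is made up mainly of hepatocytes, which secrete most plasma proteins and handle fuel, bile acids and foreign compounds. Kupffer cells, sinusoidal endothelium and stellate cells line or surround the blood channels between the hepatocyte plates. Levels are given as log2 intensity minus the 75th percentile of the same array, so that 0 is the brightness of the 75th-percentile probe and 1 unit is a 2-fold difference. A gene with several probes is represented by its brightest one. Brightness also depends on the sequence of each probe, so a rank between genes is a rank of probe signal and not of RNA amount, whereas the same probe can be compared across the 4 livers.

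The 4 genes taken as markers of hepatocytes, Kupffer cells and endothelium were all present. Alb, which encodes serum albumin, read 10.23, 10.55, 10.92 and 10.37 in PBS 1 to 4, and its probe was saturated on 2 of the 4 arrays, so these levels are lower bounds there. Apoa1, the main protein of high-density lipoprotein, read 7.56, 8.24, 8.12 and 8.41. Clec4f, a lectin made by Kupffer cells, read 2.79, 4.48, 4.53 and 4.56. Stab2, a scavenger receptor of sinusoidal endothelium, read 1.42, 1.36, 1.72 and 1.38. All 4 markers were well above background on all 4 arrays, as were 66.8% of the 18448 genes measured (12329 genes). Clec4f was 3.41-fold lower in PBS 1 than in the liver where it was highest, with the other 3 livers close together.

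The sequences that reported these cell types are 60-base probes taken from the deposited array files, with the positions that the files give on the mouse build mm7. The Alb probe lies at chr5:90443687-90443746 on the plus strand, the Apoa1 probe at chr9:46187961-46188020 on the plus strand and the Clec4f probe at chr6:83670672-83670730 on the minus strand. They are shown because every level of these markers is the brightness of 1 such stretch, and each of these 3 can be read through in at least 1 frame without a stop codon. The Stab2 probe, at chr10:86399664-86399723 on the minus strand, has a stop codon in every frame, and its sequence is not printed.
Alb: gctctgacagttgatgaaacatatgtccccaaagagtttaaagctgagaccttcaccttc
Apoa1: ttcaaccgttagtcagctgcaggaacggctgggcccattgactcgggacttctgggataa
Clec4f: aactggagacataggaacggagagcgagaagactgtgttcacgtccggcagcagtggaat

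The 4 arrays carried 41174 probes each, and their 75th percentiles were 569, 492, 349 and 564 intensity units. The share of probes well above background was 66.3% in PBS 1, 65.4% in PBS 2, 56.0% in PBS 3 and 55.9% in PBS 4, and 52.2% of probes were above it on all 4. Each array lay on a slide of its own, so slide and liver cannot be told apart. Among 3501 genes with detected probes at least 500 bases apart in the genome, the upstream probe read lower than the downstream one by a median of 1.36 in PBS 1, 1.54 in PBS 2, 1.64 in PBS 3 and 1.66 in PBS 4 on the log2 scale. PBS 1 therefore had the smallest difference between the ends of transcripts, and the part of transcript coverage in the differences between livers below was not tested. Y-linked Eif2s3y and Ddx3y were detected on all 4 arrays at means of 2.59 and 1.45, and all 4 probes for Xist, the RNA that coats the inactive X of females, were on no array well above background, in keeping with the male label.

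The brightest probes were those of proteins the liver exports. Among the 40 brightest named genes, 20 encode secreted proteins, 7 detoxification or antioxidant enzymes, 3 mitochondrial proteins, 3 ribosomal proteins and 3 enzymes or carriers of fuel metabolism. Mup1, which encodes a pheromone-binding major urinary protein, read 10.20, 10.39, 10.81 and 10.14, although its probe cannot be assigned to 1 member of that near-identical family. Ambp, the precursor of alpha-1-microglobulin and bikunin, read 10.15, 10.28, 10.66 and 10.20. Fgb, the fibrinogen beta chain, read 10.01, 10.01, 10.44 and 10.30, and Fabp1, the liver fatty acid binding protein, read 9.89, 9.94, 10.35 and 9.70. These probes differed little between livers, and PBS 3, the array with the lowest 75th percentile, read highest in each.

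The other 4 of the 40 brightest are Pigt, Lars2, Ptprz1 and Grn, and for these the probe cannot stand for the gene. Ptprz1, a receptor phosphatase of the nervous system, averaged 10.42 on its brightest probe while its other 3 probes were well above background on no array. Pigt, a subunit of the enzyme that attaches lipid anchors to proteins, averaged 10.63 on 1 probe and -1.84 on the other. Grn, which encodes progranulin, averaged 9.96 and 4.85 on its probes. Lars2, the mitochondrial leucyl-tRNA synthetase, had 1 probe only, which averaged 10.44 and was saturated on all 4 arrays. The probes of Pigt, Ptprz1, Apoc1 and Apoe were saturated on all 4 arrays too, so the order at the very top has no meaning.

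Markers of hepatocytes were the brightest cell type lists, followed by those of the sinusoid. Every measured member was detected on all 4 arrays in 6 of 16 cell type lists, namely the general, periportal and pericentral hepatocyte lists and the lists for Kupffer cells, sinusoidal endothelium and stellate cells. The median level over the 17 measured general hepatocyte markers was 8.10 ± 0.37 (SD, n = 4 arrays), against 1.72 ± 0.50 for the 16 Kupffer cell markers, 1.63 ± 0.15 for the 14 endothelial markers and 1.00 ± 0.43 for the 14 stellate cell markers. Lower still were bile duct at -0.93 ± 0.22, T and NK cells at -3.11 ± 0.37, B and plasma cells at -3.07 ± 0.32 and neutrophils at -3.35 ± 0.45. In these lists 9 of 11, 8 of 14, 6 of 9 and 5 of 10 members were detected on all 4 arrays, against 66.8% of all genes. Their medians therefore include undetected probes. In whole tissue, fewer cells of a type and less RNA per cell cannot be told apart.

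**Figure D1:**
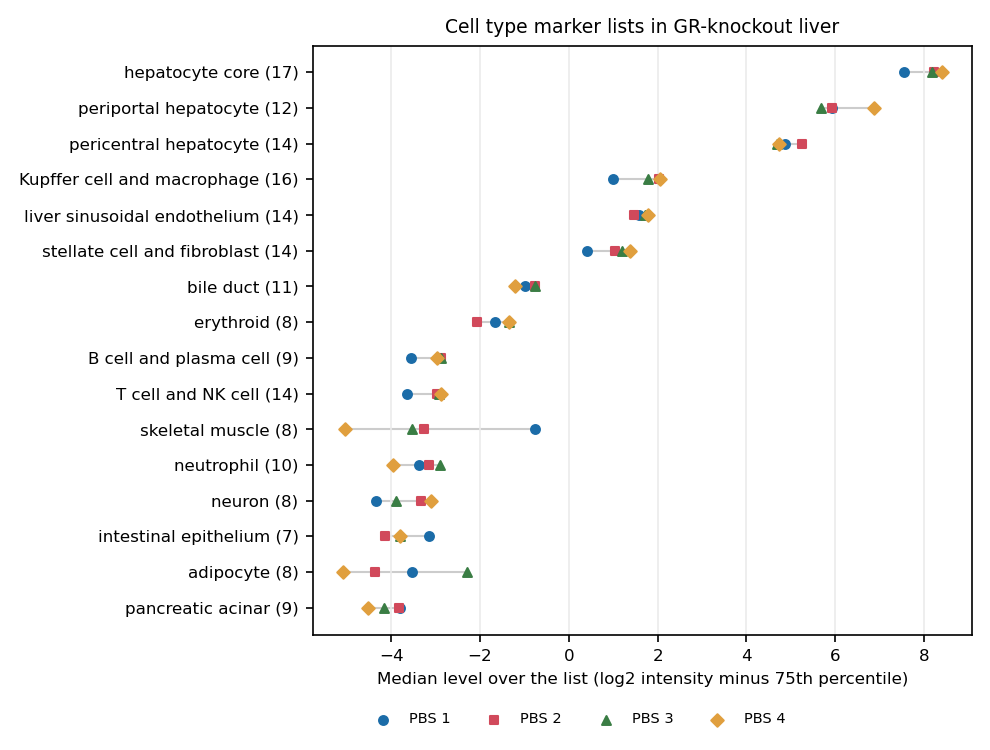
Median level of each cell type marker list (log2, relative to the 75th percentile of each array) in the 4 PBS livers, 1 symbol per array, with the number of measured members in brackets and a grey line from the lowest to the highest array. Hepatocyte lists lie between 4.70 and 8.41, and skeletal muscle and adipocyte lists have the widest spread between livers.

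The livers were not highest or lowest equally often. Of the 12264 genes detected on all 4 arrays, unsaturated and with a value on each, 22.5% were highest in PBS 1, 12.7% in PBS 2, 35.1% in PBS 3 and 29.6% in PBS 4, while 35.6% were lowest in PBS 1, 16.8% in PBS 2, 22.3% in PBS 3 and 25.3% in PBS 4. Of 50 gene lists, 24 had their lowest median in PBS 1 and 22 their highest in PBS 4. A low PBS 1 and a high PBS 4 were thus the commonest outcomes for a list, and the counts below are to be read against these shares.

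Hepatocytes differ along the blood path from the portal vein to the central vein, and the genes of the portal end were higher in PBS 4. Of 12 periportal genes, all detected, 10 were highest in PBS 4, against 29.6% of all genes, and their median was 5.94, 5.92, 5.67 and 6.88 in PBS 1 to 4. Ass1, which joins citrulline and aspartate in the urea cycle, read 7.13, 7.26, 6.98 and 8.38. Gls2, the liver glutaminase, read 5.86, 6.30, 6.30 and 7.28. Etnppl, a phospholyase of phosphoethanolamine, read 3.25, 3.53, 3.24 and 5.49, and Aldh1b1, a mitochondrial aldehyde dehydrogenase, read 0.90, 2.51, 1.13 and 3.71. In each of these PBS 4 was above the other 3 livers. The list's median was highest in PBS 4 under all 5 alternative settings of scaling, background and probe choice.

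The genes of the central end were not shifted with them. The 14 pericentral genes had medians of 4.88, 5.25, 4.70 and 4.73, highest in PBS 2 under every alternative setting tried. Glul, the glutamine synthetase of the last hepatocytes before the central vein, read 5.72, 6.28, 6.54 and 5.65. Cyp2e1, which oxidises ethanol, was among the steadiest, at 8.41, 8.24, 8.31 and 8.14. Cyp7a1, the first and rate-limiting enzyme of bile acid synthesis, read 3.86, 3.20, 2.50 and 2.62, and Axin2, a target of Wnt signalling, read -2.11, -1.26, -2.997 and -2.52.

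Kupffer cell markers were lowest in PBS 1. Of the 16 markers, 15 had their lowest value in PBS 1, against 35.6% of all genes, and the list's medians were 0.99, 2.03, 1.79 and 2.06 in PBS 1 to 4. Summed over the list, the signal was 94.97 times the array's 75th percentile in PBS 1 and 201, 213 and 261 times it in PBS 2, 3 and 4. Cd5l, a scavenger protein that macrophages secrete, read 3.91, 5.54, 5.80 and 6.14, and Timd4, a receptor by which resident macrophages take up dying cells, read -2.67, -0.36, -0.90 and -0.63. Marco, a scavenger receptor, read 3.61, 3.71, 4.97 and 5.57, so PBS 1 and 2 were close there. Cd163, the haemoglobin scavenger receptor, was the exception to the pattern, at 1.65, 2.79, 3.12 and 1.12, with PBS 4 lowest. The list's median stayed lowest in PBS 1 in each of the 5 alternative settings.

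Several other immune lists had the same liver at the bottom. The neutrophil list did not, with medians of -3.38, -3.16, -2.91 and -3.96, lowest in PBS 4. With normexp background correction, however, its median was lowest in PBS 1, at -2.26, -1.70, -1.74 and -2.00. It stayed lowest in PBS 4 in the other alternative settings. All 14 genes of major histocompatibility complexes (MHC) were detected. Of the 13 with a value on each array 11 were lowest in PBS 1, as were 19 of 27 detected interferon-induced genes. The share over all genes was 35.6%. Cd74, the invariant chain of class II complexes, read 1.57, 3.47, 3.82 and 3.04, and Ciita, the regulator that turns class II genes on, read -3.85, -2.50, -1.90 and -2.54. H2-K1, a class I gene that nearly every cell uses, varied less on its brightest probe, at 8.25, 8.58, 8.97 and 8.65. Its dimmer probes, all detected on all 4 arrays, read 5.88, 5.63, 4.68 and 5.72, and 4.95, 4.84, 3.78 and 4.47. Both had PBS 1 highest and PBS 3 lowest, so the H2-K1 probes disagree. Cd4, the co-receptor of helper T cells, went the other way, at -2.00, -2.36, -2.44 and -2.98. Oas2, a sensor enzyme of double-stranded RNA, read -2.55, -0.96, -0.56 and -1.57. Cd79b, part of the B cell receptor, read -2.53, -0.47, 0.19 and 0.69, and Jchain, the joining chain of secreted antibodies, read -4.04, -2.78, -1.78 and -2.06. The medians of the MHC, interferon, T and NK cell and B cell lists were lowest in PBS 1 under all 5 alternative settings as well. Those of the T and NK cell and B cell lists include undetected probes, and the part of background was not tested. Among their members detected on all 4 arrays, 5 of 8 and 5 of 6 were lowest in PBS 1.

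Endothelial markers did not share that pattern. Among the 14 genes, 3 were lowest in PBS 1 and 7 in PBS 2, against 35.6% and 16.8% of all genes. The list's medians spanned 1.46 to 1.79. Clec4g, a lectin of sinusoidal endothelium, read 4.19, 4.09, 4.37 and 4.29. Gpr182, a receptor of the same cells, read 4.15, 3.69, 3.80 and 3.96. Of 14 stellate cell and fibroblast genes 8 were lowest in PBS 1, against 35.6% of all genes. Col3a1, a fibrillar collagen, read 0.44, 2.26, 2.63 and 2.35, and Col1a1 read -0.70, 1.08, 0.99 and 0.42, so both collagens were lowest in PBS 1, whereas Dcn, the proteoglycan decorin, read 5.66, 5.65, 6.55 and 6.12.

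Lists for tissues outside the liver had medians below 0 but held some bright members. Fabp2, the intestinal fatty acid binding protein, read 6.26, 6.00, 6.34 and 6.37, and Lgals4, a galectin of the gut, read 1.96, 2.09, 2.96 and 1.16. Hba-a1, an alpha globin of red cells with a near-identical copy, read 6.43, 5.01, 6.81 and 7.35, a 5.07-fold range. The muscle and adipocyte lists differed most between livers. Of 8 skeletal muscle genes, 3 were detected on all 4 arrays, against 66.8% of all genes. The summed signal of the 8 was 8.59 times the 75th percentile in PBS 1, 1.205 in PBS 2, 0.962 in PBS 3 and 0.739 in PBS 4. Tnni2, the fast muscle troponin inhibitor, read 2.13, -1.82, -1.48 and -2.08. Acta1, the actin of skeletal muscle, read 0.63, -3.73, -3.65 and -5.38 and was well above background on 3 arrays. Tnnc2, the calcium-binding troponin of fast muscle, was not in the list but was among the genes of largest spread, at 2.32, -2.08, -2.45 and -3.32, or 49.95-fold from the lowest to the highest liver. These 3 genes were high in PBS 1 alone. Myh1, a fast myosin, read -3.46, -2.81, -3.43 and -3.87 on its brightest probe, but 0.99, -5.27, -5.08 and -6.27 on a second one that was detected on 1 array, so its probes disagree. The part of muscle RNA in other differences of that liver was not tested.

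Adipocyte markers differed between livers as well. Adipoq, which fat cells secrete as adiponectin, read -3.29, -4.96, -1.62 and -4.73 and was well above background on 2 arrays, and Ucp1, the uncoupling protein of brown fat, was on none. Cfd, the complement factor also known as adipsin, read 7.33, 6.79, 8.75 and 4.58. Cidec, a protein of the lipid droplet surface that fatty livers also make, read 4.99, 2.19, 4.86 and 0.88. Fabp4, the fatty acid binding protein of fat cells and macrophages, read 3.80, 2.70, 3.68 and 3.12. In each of Adipoq, Cfd, Cidec and Fabp4 the higher 2 livers were PBS 1 and 3. Retn, another member, did not share this on its brightest probe, at -3.87, -3.75, -3.31 and -5.44, detected on 3 arrays. Its second probe, detected on 2 arrays, read -3.73, -4.59, -3.63 and -6.65. Of the 8 members, 3 were detected on all 4 arrays, against 66.8% of all genes. The summed signal of the list was 207, 122, 472 and 34.6 times the 75th percentile. Pancreatic acinar genes were detected on all 4 arrays for 2 of 9 members, against 66.8% of all genes. These were Ctrb1 and Cel, both highest in PBS 1.

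The receptor deleted in these animals gave weak signal. The brightest of 4 Nr3c1 probes read 0.14, 0.43, 0.40 and 0.49, with a mean of 0.37 ± 0.15 (SD, n = 4), and the other 3 averaged -2.93, -3.71 and -5.13. Nr3c1 lies on chromosome 18, and none of its probes is known to lie in the deleted part, so these levels neither check the knockout nor measure what is left of the receptor. Cells other than hepatocytes can also carry it. Nr3c2, the mineralocorticoid receptor, which binds the same hormone, read -1.49, -1.87, -2.19 and -2.68 on the 1 of its 3 probes that was detected.

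The machinery that supplies and carries the hormone was well represented. Hsd11b1, the enzyme that regenerates active corticosterone inside the cell, read 6.38, 6.56, 7.01 and 6.78. Serpina6, the corticosteroid-binding globulin of plasma, read 6.67, 6.29, 7.20 and 6.91. Hsd11b2, the enzyme that inactivates the hormone, was well above background on 1 array, a gene named after its value was seen. Chaperones of the unbound receptor were steady, with Hsp90aa1 at 6.68, 6.50, 6.30 and 6.20. Of 15 genes for corticoid receptors and steroid handling, 14 were detected on all 4 arrays, against 66.8% of all genes. None of these had an SD of 1 or more, against 1.64% of all genes.

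Genes that glucocorticoids are known to induce were present as well, 18 of 19 on all 4 arrays, against 66.8% of all genes. Tsc22d3, which encodes the leucine zipper protein GILZ, read 2.88, 3.15, 3.25 and 2.90 and was steadier than most genes. Tat, tyrosine aminotransferase, a classical hormone-induced enzyme, read 7.09, 7.28, 7.02 and 7.52. Fkbp5, a co-chaperone that lowers hormone binding, read -1.03, -2.03, -1.36 and -2.69, a 3.15-fold range. Per1, a clock gene that the hormone also induces, read -0.04, -1.08, -0.67 and -2.94. Per1 was lowest in PBS 4. The other 2 Fkbp5 probes, both detected on all arrays, read -0.75, -2.17, -2.51 and -2.46, and -0.44, -3.36, -3.70 and -3.55, so all 3 had PBS 1 highest but they differed in which liver was lowest.

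Metallothioneins, small proteins that bind zinc and copper, moved as a pair. Mt1 read 4.69, 2.01, 3.60 and 4.90, and Mt2 read 5.35, 3.24, 4.46 and 5.28. Both were lowest in PBS 2, by 7.42-fold for Mt1 and 4.30-fold for Mt2 against the highest liver. A second, dimmer Mt1 probe at -1.27, -2.45, -1.27 and -2.09 was lowest in PBS 2 too. The 250 bases upstream of their starts, from RefSeq on build GRCm38.p6, lie at chr8:94178839-94179088 for Mt1 and at chr8:94172368-94172617 for Mt2, both on the plus strand. They are shown because the pair moved together. Matches to TGCNCNC, a pattern looser than the core of the metal response element, were searched on both strands and are in capitals. A match need therefore not be a metal response element.
Mt1: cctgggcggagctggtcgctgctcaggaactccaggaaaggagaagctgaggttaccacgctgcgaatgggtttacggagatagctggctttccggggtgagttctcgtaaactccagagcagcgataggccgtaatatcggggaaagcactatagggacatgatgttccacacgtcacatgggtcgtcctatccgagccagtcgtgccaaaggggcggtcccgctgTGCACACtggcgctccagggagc
Mt2: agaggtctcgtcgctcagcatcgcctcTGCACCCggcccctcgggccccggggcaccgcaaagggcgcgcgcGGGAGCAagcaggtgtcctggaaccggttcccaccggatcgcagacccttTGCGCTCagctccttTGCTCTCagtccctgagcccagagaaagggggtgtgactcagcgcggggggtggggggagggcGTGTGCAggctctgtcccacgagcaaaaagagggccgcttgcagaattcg
There was 1 match in the Mt1 window and 5 in the Mt2 window, and 44.4% of 32851 such windows held at least 1, so a match alone sets neither gene apart.

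Gluconeogenesis, the making of glucose from lactate and amino acids, was represented by 19 genes, all detected. Pck1, which encodes the phosphoenolpyruvate carboxykinase of the cytosol, read 7.41, 7.61, 8.10 and 7.50. G6pc, the glucose-6-phosphatase that releases free glucose, read 3.39, 5.27, 5.80 and 4.91, a 5.32-fold range with PBS 1 lowest. Fbp1, fructose bisphosphatase, read 9.22, 9.03, 8.44 and 9.29. Pck1 and G6pc were both lowest in PBS 1, but Pck1 spanned only 1.61-fold. Got1, the cytosolic aspartate aminotransferase, stood apart in PBS 4 at 4.92, with 3.36, 3.44 and 2.92 in PBS 1, 2 and 3.

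Of 22 genes for the urea cycle and amino acid breakdown, 13 were highest in PBS 4, against 29.6% of all genes. Members such as Ass1, Cps1, Sds, Hal and Gls2 are also in the periportal list, so the counts of the lists are not independent, and the list's median was highest there under all 5 alternative settings. Agxt, which converts glyoxylate to glycine, read 7.06, 7.70, 7.92 and 8.68. Sds, serine dehydratase, read 3.37, 4.06, 3.71 and 5.35. Hal, which opens histidine breakdown, read 6.19, 6.00, 6.49 and 7.42. Cps1, the entry enzyme of the urea cycle, read 6.02, 6.28, 5.16 and 7.09, and Hgd, an enzyme of tyrosine breakdown, read 4.50, 4.36, 3.21 and 4.85, so these probes also had PBS 3 at the bottom.

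Asns, which makes asparagine and is induced when amino acids run short, had one of the largest spreads, at 3.04, 2.07, 4.32 and 5.31. Its highest liver, PBS 4, was 9.47-fold above its lowest, PBS 2. Asns was the 1 gene of 20 in the ER stress and protein folding list with an SD of 1 or more, against 1.64% of all genes. The list's medians of 3.80, 4.05, 4.29 and 4.39 were also highest in PBS 4, under all 5 alternative settings too. Ddit3, the transcription factor CHOP, read 0.83, -0.07, 0.60 and -0.13, and Trib3, a pseudokinase that CHOP and ATF4 induce, read 1.21, 1.17, 1.94 and 1.20. The window upstream of Asns at chr6:7693210-7693459 on the minus strand (GRCm38.p6, RefSeq) holds 1 match, in capitals, to TGATGNAAN, the pattern of the amino acid response element, which 3.44% of windows hold.
Asns: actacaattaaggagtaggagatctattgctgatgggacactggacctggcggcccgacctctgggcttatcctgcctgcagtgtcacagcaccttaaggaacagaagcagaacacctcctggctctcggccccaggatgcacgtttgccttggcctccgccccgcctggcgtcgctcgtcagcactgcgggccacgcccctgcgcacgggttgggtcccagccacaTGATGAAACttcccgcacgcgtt

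Some genes of fat handling differed widely between livers. Of 24 genes for fatty acid oxidation and ketogenesis, all detected, 2 had an SD of 1 or more, against 1.64% of all genes. Fgf21, a hormone that the fasting liver secretes, read 2.23, 1.97, 1.67 and -2.02, so PBS 4 was apart from the other 3, by 18.98-fold from the highest. Its second probe read 0.58, 0.09, -0.43 and -3.74 and gave the same picture. Cyp4a14, a fatty acid hydroxylase and target of PPAR alpha, read 8.40, 5.95, 7.83 and 6.92, and Cyp4a10, its relative, read 5.61, 3.79, 3.88 and 3.98, both highest in PBS 1.

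Genes of glycolysis and lipogenesis were highest in PBS 2 as a list, under all 5 alternative settings too, with medians of 3.41, 4.19, 3.47 and 3.05. Thrsp, known as Spot 14, read 4.80, 6.31, 4.41 and 4.63. Scd1, the stearoyl-CoA desaturase, read 7.63, 6.80, 5.36 and 7.28. Pnpla3, a lipid droplet protein, read -2.01, -0.40, -2.45 and -2.65. Scd1 thus had PBS 3 lowest, and Thrsp and Pnpla3 had PBS 2 highest.

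Several lipid droplet genes were among the genes of largest SD, from which they were picked here, and no list of such genes was made. Cidec, above, and Cidea, which promotes droplet fusion and is otherwise known from brown fat, were high in PBS 1 and 3. Cidea read 1.74, -2.08, 1.48 and -2.82. Plin4, a droplet coat protein, read 4.56, 1.56, 4.17 and 0.81. Mfsd2a, a lysolipid transporter, read 0.82, -1.54, -0.29 and -3.14. In all 4 of these genes PBS 1 and 3 lay above PBS 2 and 4. The same held for the fat cell markers Adipoq, Cfd and Fabp4 above, but not for the brightest Retn probe. The part of fat cell RNA was not tested. Plin2, the main droplet coat of hepatocytes, did not share it, at 7.91, 7.79, 7.32 and 7.61. G0s2, an inhibitor of the lipase that empties droplets, read 5.24, 4.83, 4.25 and 1.87, with PBS 4 lowest.

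Cholesterol synthesis genes were lowest as a list in PBS 3, with medians of 4.06, 3.75, 3.17 and 3.65. Of 20 members, 10 had their lowest value there, against 22.3% of all genes. Fdps, which makes farnesyl diphosphate, read 4.80, 5.39, 3.67 and 5.03. Mvd, a decarboxylase of the pathway, read 3.39, 2.32, 2.04 and 1.86, highest in PBS 1. Hmgcs1, which makes the HMG-CoA of the pathway, went another way on its brightest probe, at 7.72, 7.65, 8.09 and 7.95. Its dimmer probes, all detected on all 4 arrays, read -0.85, -1.27, -2.04 and -1.15, and -1.15, -1.996, -3.03 and -3.35. These were lowest in PBS 3 and in PBS 4, so the Hmgcs1 probes disagree. On the brightest probes no member of this list had an SD of 1 or more, against 1.64% of all genes. Dimmer probes of Fdps and Hmgcs1 had SDs of 1.04 and 1.01.

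Bile acid genes were all detected. Abcb11, the bile salt export pump, read 6.34, 7.77, 7.61 and 7.86, with PBS 1 lowest. Nr0b2, the repressor SHP that bile acids induce, read 0.17, 1.70, 1.54 and 0.65. Slc27a5, which activates bile acids for conjugation, was steady at 7.69, 7.60, 7.71 and 8.02, as was Slco1b2, an uptake transporter, at 7.81, 7.74, 8.10 and 7.66. No gene of this list of 19 had an SD of 1 or more, against 1.64% of all genes.

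Plasma protein genes were bright, with a spread near that of other genes. All 34 complement and coagulation genes were detected on all 4 arrays. None of the 33 unsaturated ones had an SD of 1 or more, against 1.64% of all genes. The median SD was 0.288 over these members and 0.320 over all genes. Fgg, the fibrinogen gamma chain, read 9.71, 9.63, 9.83 and 9.76, and F2, prothrombin, read 9.41, 9.40, 9.56 and 9.61. C8a, a pore component of complement, was the most spread member, at 5.76, 6.76, 7.43 and 7.17. Among serpins, which inhibit proteases, Serpinc1, antithrombin, read 8.70, 8.92, 9.31 and 9.19.

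Acute phase genes, which liver makes more of in inflammation, had PBS 2 lowest in 10 of 20 unsaturated members and PBS 4 highest in 9. Over all genes, 16.8% were lowest in PBS 2 and 29.6% highest in PBS 4. Saa1, a serum amyloid A protein carried on lipoprotein, read 8.54, 7.62, 8.73 and 9.80, and Saa3 read 5.80, 4.95, 5.67 and 7.41. Saa2, a near copy of Saa1, read 9.06, 8.34, 9.40 and 10.06, and its probe may share signal with Saa1. Lcn2, the iron-trapping lipocalin, read 1.83, 0.21, 2.14 and 2.42, and Orm3, an orosomucoid, read 1.90, 1.49, 3.60 and 3.56. Hamp, which encodes hepcidin and lowers iron uptake, read 7.59, 8.14, 9.22 and 8.70, a different order with PBS 1 lowest.

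**Figure D2:**
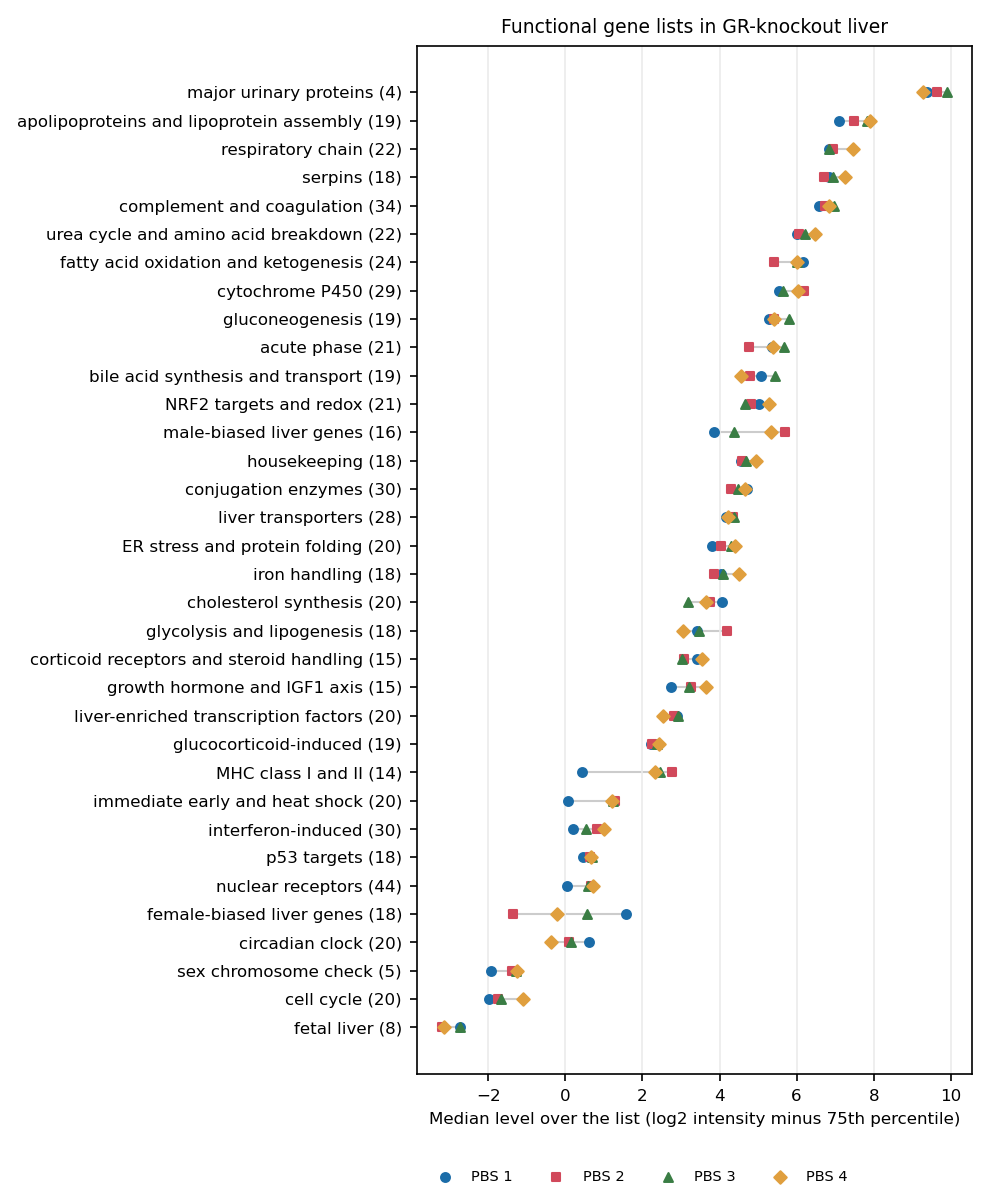
Median level of each functional gene list (log2, relative to the 75th percentile of each array) in the 4 PBS livers, 1 symbol per array, with the number of measured members in brackets. Major urinary proteins, apolipoproteins and the respiratory chain are the brightest lists, and female-biased, MHC and male-biased genes have the widest gaps between array medians.

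Sex-biased liver genes, which differ between male and female mice through the timing of growth hormone pulses, were spread among these male livers. The 16 measured male-biased genes had medians of 3.86, 5.70, 4.37 and 5.32. Of the 15 detected on all arrays, 10 were lowest in PBS 1 and 10 were highest in PBS 2, against 35.6% and 12.7% of all genes. Hsd3b5, a steroid reductase of male liver, read 3.30, 5.65, 3.94 and 4.94. Elovl3, a fatty acid elongase, read 3.11, 5.74, 4.89 and 5.70, and Selenbp2, a selenium-binding protein, read 6.96, 8.87, 7.95 and 8.52. In all 3 PBS 1 was lowest and PBS 2 highest. The list's median was lowest in PBS 1 under all 5 alternative settings and highest in PBS 2 under 4, with PBS 4 highest when arrays were centred on the median.

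Female-biased genes ran the other way. Their medians over 18 measured genes were 1.57, -1.36, 0.57 and -0.23. The median was highest in PBS 1 and lowest in PBS 2 under every alternative setting. Of the 12 detected on all arrays, 7 were highest in PBS 1 and 9 lowest in PBS 2, against 22.5% and 16.8% of all genes. Acot3, a peroxisomal thioesterase, read 2.53, -2.67, -1.21 and -2.40, a 36.9-fold range. Fmo2, a flavin monooxygenase, read 1.05, -2.15, -0.14 and -1.51. Cyp4a14, given above, is in this list too and was also highest in PBS 1. Cyp3a41a, the brightest member at a mean of 8.59, and Cyp3a44 are near-identical to other Cyp3a genes, so their signal cannot be assigned to 1 gene.

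Of 15 genes of the growth hormone and IGF1 axis, all detected, 2 had an SD of 1 or more, against 1.64% of all genes. These were Bcl6 and Cish. Bcl6, a repressor that is high in male liver and that growth hormone lowers, read 1.51, 5.19, 3.20 and 1.72. Cish, a feedback inhibitor that growth hormone induces through STAT5, read 2.17, -0.12, 2.42 and 3.85, and Socs2, a second such inhibitor, read 0.16, -0.84, 0.57 and 0.97. PBS 2 was thus highest for Bcl6 and lowest for Cish and Socs2. Igf1, the growth factor made under the hormone, read 7.04, 7.19, 7.74 and 7.29, with an SD of 0.303 against a median of 0.320 over genes. Ghr, the receptor, was steadier, at 5.94, 6.26, 6.25 and 6.33. The SDs of their second probes were 0.19 and 0.07. Those of their dimmest probes, also detected on all 4 arrays, were 0.75 and 1.15, so the probes disagree in spread. Upstream of Bcl6, windows of 250 bases at its 2 starts held 1 and 3 matches to TTCNNNGAA, the core pattern of a STAT5 site, and that of Cish held 0, where 7.02% of windows held at least 1.

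Clock genes, which cycle over the day, separated PBS 4. Dbp, a transcription factor with one of the widest daily cycles in liver, read 6.85, 6.08, 6.83 and 3.59, so PBS 4 was 9.59-fold below the highest liver. Per2, a repressor of the clock, read 0.53, -0.36, 0.25 and -2.34, and its second probe was also lowest in PBS 4. Usp2, a deubiquitinase with a daily cycle, read 0.91, -0.85, -0.33 and -1.91, and Bhlhe40, a clock repressor, read 2.28, 2.19, 1.97 and 0.64. Tef, a relative of Dbp, read 3.44, 2.85, 3.52 and 2.33. Nfil3, which competes with Dbp for the same sites, was highest in PBS 4, at 2.67, 2.97, 2.97 and 3.58. In the list, 15 of 20 genes were detected on all 4 arrays, against 66.8% of all genes. Of these, 8 were lowest and 3 highest in PBS 4, and 5 had an SD of 1 or more. The shares over all genes were 25.3%, 29.6% and 1.64%. The list's median was highest in PBS 1 in every setting and lowest in PBS 4 in all but 1, in which arrays were centred on the median and PBS 2 was lowest.

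Per1 and Tef each hold the E-box CACGTG, at which the clock activators bind, in a window of 250 bases before a start, as do 6.02% of all windows. The Per1 window lies at chr11:69098699-69098948 and the Tef window at chr15:81811164-81811413, both on the plus strand (GRCm38.p6, RefSeq), with the E-box in capitals. They are shown because both genes were lowest in PBS 4. The second Tef window also held 1 match, whereas the second Per1 window and those of Dbp and Usp2 held none.
Per1: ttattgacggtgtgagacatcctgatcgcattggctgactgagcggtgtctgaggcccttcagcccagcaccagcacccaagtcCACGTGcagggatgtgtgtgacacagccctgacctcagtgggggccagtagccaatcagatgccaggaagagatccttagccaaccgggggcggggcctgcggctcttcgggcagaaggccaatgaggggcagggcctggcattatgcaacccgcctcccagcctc
Tef: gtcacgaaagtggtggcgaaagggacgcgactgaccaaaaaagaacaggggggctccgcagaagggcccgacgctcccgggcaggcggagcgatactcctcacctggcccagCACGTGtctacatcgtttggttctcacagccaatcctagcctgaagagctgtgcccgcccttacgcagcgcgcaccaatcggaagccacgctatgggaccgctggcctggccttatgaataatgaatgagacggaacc

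**Figure D3:**
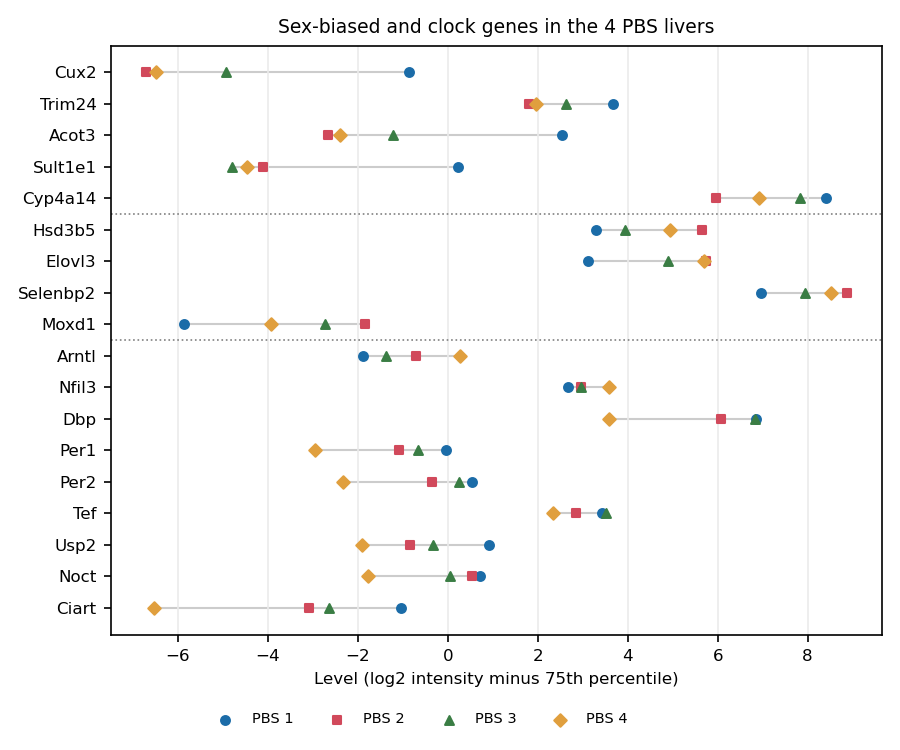
Levels (log2, relative to the 75th percentile of each array) of 18 sex-biased and clock genes in the 4 PBS livers, chosen after their values were seen. From the top, 5 genes highest in PBS 1, 4 genes lowest in PBS 1, and 9 clock genes, of which Arntl and Nfil3 are highest in PBS 4 and the other 7 lowest there.

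Some members of these lists outside the naming rule are given here after their values were seen. Cux2, a repressor made in female liver, read -0.87 in PBS 1 and -6.71, -4.92 and -6.49 in PBS 2, 3 and 4, and was well above background in PBS 1 only. Trim24, a coregulator, read 3.67, 1.82, 2.62 and 1.97. Sult1e1, the estrogen sulfotransferase, read 0.23, -4.10, -4.80 and -4.48. Moxd1, a monooxygenase-like protein of male liver, read -5.87, -1.84, -2.73 and -3.92. Arntl, the clock activator BMAL1, read -1.90, -0.70, -1.38 and 0.28, opposite in order to Dbp in PBS 4, while Noct, a clock-controlled phosphatase, read 0.71, 0.53, 0.04 and -1.78 and Ciart, a clock repressor, read -1.04, -3.08, -2.65 and -6.53.

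Immediate early genes, which cells switch on within minutes of a stimulus, were lowest in PBS 1 as a list, with medians of 0.07, 1.29, 1.24 and 1.21. Egr1, a zinc finger factor, read 0.73, 3.26, 4.20 and 2.99. Fos, a partner of Jun in AP-1, read -3.36, -0.66, -0.79 and -2.998, low in both PBS 1 and PBS 4. Dusp1, a phosphatase that switches off MAP kinases, read 0.12, 2.24, 1.28 and 0.39. Hspa1a, a heat shock protein, read -0.42, 0.14, 0.82 and -1.86. The shape thus differed from gene to gene, and 3 of 20 genes had an SD of 1 or more, against 1.64% of all genes.

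Foreign-compound enzymes were bright. Of 29 cytochrome P450 genes, 28 were detected on all 4 arrays, against 66.8% of all genes. Of these, 1 had an SD of 1 or more, against 1.64% of all genes. Cyp2d26 read 8.93, 9.08, 9.53 and 9.01. Cyp2c70, which hydroxylates bile acids in mice, read 5.16, 7.23, 5.64 and 6.79. Cyp3a11, the main drug-oxidising P450 of mouse liver, read 7.02, 6.20, 4.98 and 6.55, with PBS 3 lowest. Mgst1, a microsomal glutathione transferase, hardly varied, at 9.19, 9.14, 9.31 and 9.19, whereas Sult5a1, a sulfotransferase, read -0.71, 1.41, 1.05 and -0.96.

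Transcription factors were dimmer than the enzymes. Of 44 nuclear receptors, 33 were detected on all 4 arrays and 7 on none, among them Esr2, Pgr and Nr4a3. Over all 18448 genes, 12329 (66.8%) were detected on all 4 arrays and 3134 on none. Rxra, the common partner of many receptors, read 6.68, 6.61, 6.79 and 6.55. Ppara, the receptor for fatty acids, read 5.05, 4.34, 5.13 and 3.93, and Nr1h4, the bile acid receptor FXR, read 5.08, 4.79, 5.43 and 4.55. All 20 liver-enriched transcription factors were detected, and 12 of them were lowest in PBS 4, against 25.3% of all genes. Among these, Cebpb read 5.51, 6.00, 6.41 and 4.91 and Onecut2 read 4.48, 4.17, 4.88 and 3.33. The median of the liver-enriched list was lowest in PBS 4 except when arrays were centred on the median. PBS 2 was then lowest, at 2.65, and PBS 4 highest, at 2.89.

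Genes of cell division had a median level of -1.62, and 14 of 20 were detected on all 4 arrays, near the 66.8% of all genes. Of these, 11 were highest in PBS 4, against 29.6% of all genes. Ccnd1, which encodes cyclin D1, read 0.74, 1.59, 1.55 and 2.22. Mcm5, part of the replication helicase, read -1.51, -0.65, -1.02 and 0.29, and Cdc20, an activator of mitotic exit, read -1.59, -1.15, -1.35 and 0.05. Cdkn1a, the cell cycle inhibitor p21 and a p53 target, was also highest in PBS 4, at -2.00, -2.12, -1.83 and -0.35. The cell cycle list's median was highest in PBS 4 except where the median over a gene's probes was used, in which PBS 2 was highest. Afp, alpha-fetoprotein of fetal liver, read -1.14, -0.996, -1.13 and 0.19.

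Respiratory chain and housekeeping genes were all detected. Cox4i1, a subunit of cytochrome oxidase, read 8.04, 8.23, 8.78 and 8.46. Atp5b, the catalytic subunit of ATP synthase, read 8.26, 8.34, 8.22 and 8.45 on its brightest probe. Dimmer Atp5b probes, detected on all 4 arrays, read 5.66, 4.88, 2.94 and 5.14, and 3.16, 2.44, 0.67 and 2.56. Both were far lowest in PBS 3, with SDs of 1.19 and 1.07. Sdha, a subunit of complex II, read 3.71, 3.35, 2.08 and 3.58, lowest in PBS 3. Rplp0, a ribosomal stalk protein, read 8.82, 9.02, 9.21 and 9.30 on its brightest probe. Its dimmer probes read 6.36, 6.31, 5.50 and 6.52, and 4.04, 3.77, 2.50 and 4.11, with PBS 3 lowest. On the brightest probes no member of either list had an SD of 1 or more, against 1.64% of all genes.

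Across the whole liver transcriptome most genes differed less than 2-fold between the 4 samples. The spread was taken over 12264 genes detected on all 4 arrays, unsaturated and with a value on each. Their median SD was 0.320 log2 units, with quartiles of 0.215 and 0.467, and the median ratio of the highest to the lowest liver was 1.64-fold. The highest liver was at least 2-fold above the lowest for 27.7% of genes (3402). An SD of 1 or more was reached by 1.64% of genes (201), and 468 genes had an SD under 0.1. The median SD of replicated spots of 1 probe within an array, a measure of spot noise alone from 152 to 179 detected probes, was 0.068 to 0.10. Over these genes Pearson's correlation between arrays was 0.970 to 0.984, a description across genes. The pair PBS 1 and PBS 3 had the most genes at least 2-fold apart, 1706, and PBS 2 and PBS 3 the fewest, 640.

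**Figure D4:**
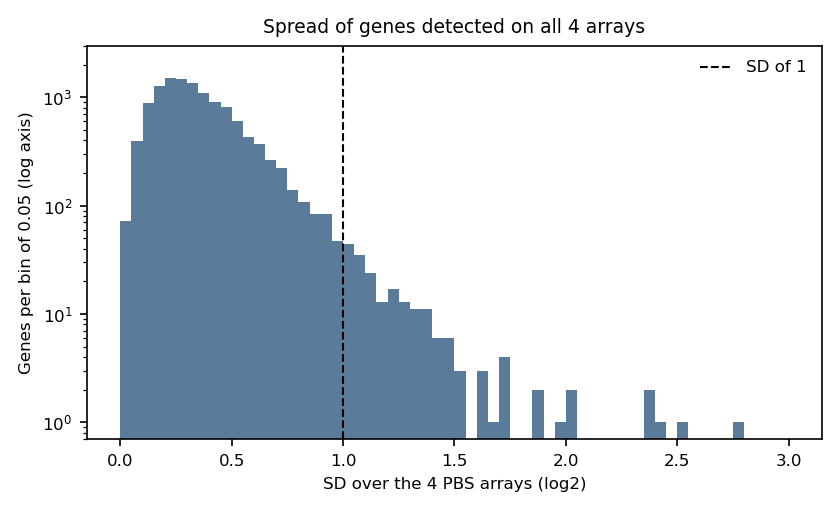
Number of genes (log axis) by the SD of their level over the 4 PBS arrays, for 12264 genes detected on all 4, in bins of 0.05 log2 units, with a dashed line at an SD of 1. Most genes lie near the median of 0.320, and 201 genes lie at or beyond the line.

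The steadiest genes, each by its brightest probe, were spread over many functions and levels. Galnt11, an enzyme that starts O-linked sugar chains, read 1.30, 1.30, 1.31 and 1.32. C4b, a complement component that liver secretes, read 6.83, 6.88, 6.81 and 6.82. Psmg3, a proteasome assembly chaperone, read 3.76, 3.79, 3.80 and 3.78, and Slc25a37, the mitochondrial iron carrier mitoferrin-1, read 2.46, 2.46, 2.51 and 2.46. Rundc1, Tm9sf4, Ftsj1, Mrps2, Zfp143 and Lrrk2 completed the 10 with the smallest SD. Other probes of these genes that were detected on all 4 arrays were less steady. Their SDs were 0.59 and 0.43 for Slc25a37, 0.38 and 0.80 for Mrps2 and 0.42 for Tm9sf4, against a median of 0.320 over genes.

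The widest genes had ranges of 6.48-fold to 76.5-fold. Of the 30 named genes with the largest SD, 14 were highest and 8 lowest in PBS 1, while 16 were lowest in PBS 4. Fam193b was the widest, at -2.69 in PBS 1 and 2.61, 3.57 and 2.07 in the others. Plaat3, a phospholipase of fat cells, read -2.84, 1.75, 1.90 and 2.38, and Uck1, a uridine-cytidine kinase, read 2.94, 2.72, 2.37 and -1.04, while its second probe, at -0.74, -1.43, -2.40 and -1.66, did not have PBS 4 lowest. Each of Fam193b and Plaat3 had 1 named probe. Serpina4-ps1, a serpin pseudogene of male liver, read -0.19, 1.56, 2.59 and -1.24, and a second probe at -0.84, 1.02, 2.14 and -1.76 gave the same order. Tff3, a trefoil peptide, read -2.69, 1.29, -0.62 and -0.61.

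**Figure D5:**
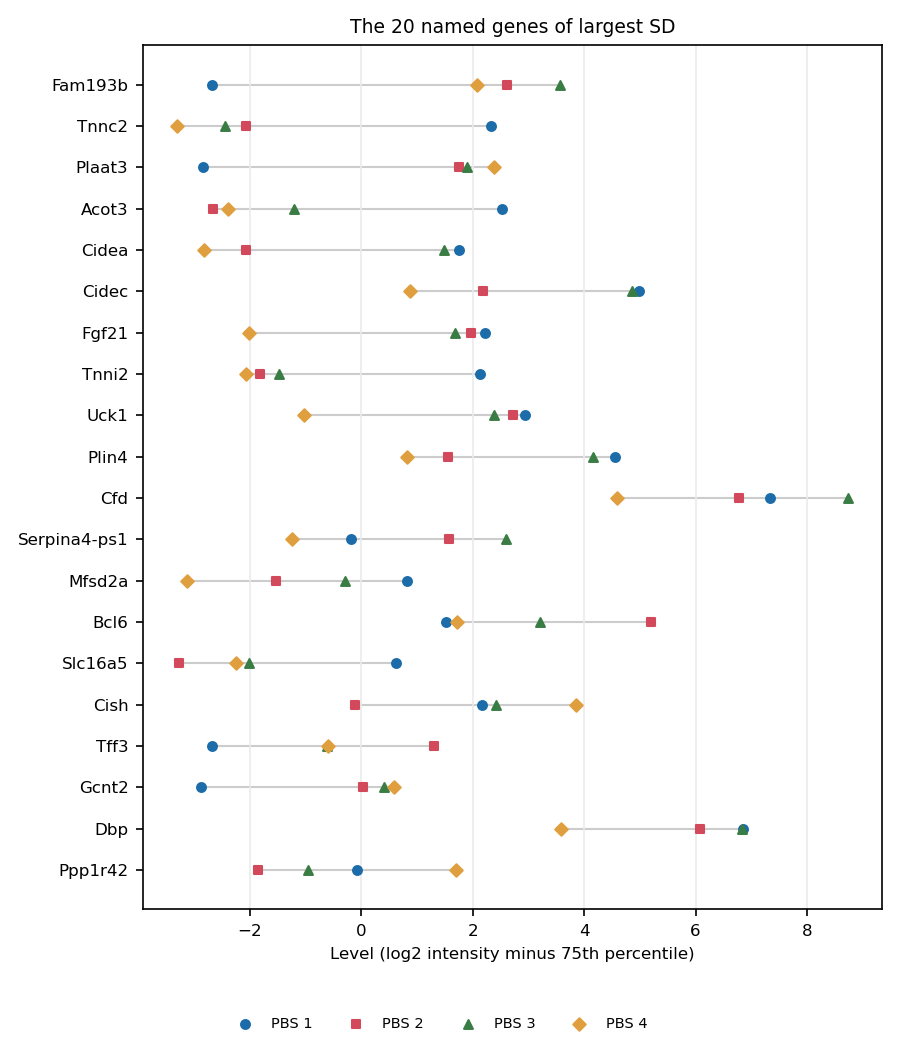
Levels (log2, relative to the 75th percentile of each array) in the 4 PBS livers of the 20 named genes with the largest SD, from the largest at the top, 1 symbol per array, with a grey line from lowest to highest. PBS 1 is the highest array for 11 of them and PBS 4 the lowest for 11.

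Probes of the same gene give a check on the spread. Of 39 genes with an SD of 1 or more and a second detected probe, 32 (82.1%) had their highest liver above their lowest on that probe too, against 71.1% of all 4199 genes with such a probe. The highest and the lowest liver were both the same on the second probe for 17 of the 39, or 43.6%, against 24.4% overall.

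A single liver stood apart from the other 3 for 657 genes, or 5.36%, by Dixon's ratio, the gap to the nearest liver as a share of the whole range, at its 95% critical value for 4 samples. That share is near the 1 in 20 that chance alone would give at this critical value. PBS 3 was the liver apart for 228 genes, PBS 4 for 225, PBS 1 for 155 and PBS 2 for 49. PBS 1 was more often apart at the low end, 110 genes against 45 at the high end, and PBS 3 at the high end, 143 against 85.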

How the data were processed

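Liver RNA (500 ng per sample) was labelled with Cy3 and hybridised to one-colour Agilent mouse arrays, per the labels. The deposited values are scanner intensities made by Agilent Feature Extraction 9.5.3.1, per the file headers, which subtracted the local background and gave a surrogate value to spots not above it; the submitters' processing notes name version 9.5. The authors' value table equals these intensities and is not scaled between arrays. Here control spots were left out, spots of 1 probe were averaged without outlier spots (195 probe values rested on outlier spots only and were set to missing), and the log2 of the deposited intensity was taken minus the array's 75th percentile. Detected means well above background by the scanner software's own test. Of 41174 probes, 22951 were named by systematic name and 131 by another accession through a RefSeq table, 6582 by a design symbol it holds, and 11510 were left with the design name and not used as genes. A named gene is represented by its brightest probe.

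Spread is the SD over the 4 arrays, for genes detected on all 4, unsaturated and with 4 values. With 1 group there was no test of a difference, Dixon's ratio served only as a screen for single livers, and the number of arrays limits the precision. Array intensities carry no counts, so no interval for depth is given. Named are 13 fixed genes, the 40 brightest genes, the 30 of largest and the 10 of smallest SD, and per list up to 5 members of highest level, 4 of largest SD and 6 undetected ones, skipping clones and predicted genes; others are said to be chosen after their values were seen. Not every gene so named is reported here. The members and gene lists were chosen with earlier results of these data known. The code for spread was tested on simulated data. Python 3.11.15, numpy 2.4.6, pandas 2.3.3, matplotlib 3.10.9, R 4.3.3 and limma 3.58.1 (for normexp) were used. Alternatives were normexp background correction, 3 other scalings, the median over probes, other detection calls, filters and thresholds, and leaving out each array. The arrays of vector-treated livers were not used here.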

Additional observations from a re-analysis of the deposited data

Results flagged for a closer look

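Dixon's ratio was past its 95% critical value, with 1 liver apart from the other 3, for 13 of the 155 named genes with 4 usable values and for 5 of 50 list medians. Chance gives about 1 in 20, many of the genes were named for their large SD, and lists share genes, so these numbers support nothing by themselves.

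PBS 1 was apart at the low end for 4 list medians. The ratio was 0.8658 for T and NK cell genes, 0.8728 for B and plasma cell genes, 0.8313 for nuclear receptors and 0.9343 for immediate early and heat shock genes. Of the 5 alternative settings of scaling, background and probe choice, the ratio stayed past the critical value in 2 for T and NK cells, 0 for B and plasma cells, 0 for nuclear receptors and 3 for immediate early genes. The nuclear receptor median was lowest in PBS 4 instead when the median over a gene's probes was used. Among genes, PBS 1 was apart at the low end for Clec4f, the Kupffer cell lectin, at 0.9538, for Plaat3 at 0.8778, for the bile salt pump Abcb11 at 0.8351 and for the collagen gene Col3a1 at 0.8314. It was apart at the high end for the fatty acid hydroxylase Cyp4a10 at 0.8973 and for the muscle troponin Tnni2 at 0.8587.

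PBS 4 was apart at the high end for the median of respiratory chain genes, with a ratio of 0.8365, which stayed past the critical value in 2 of the 5 settings. It was also apart at the high end for Afp at 0.8942, for the phospholyase Etnppl at 0.8697 and for Cdkn1a at 0.8358, and at the low end for Fgf21 at 0.8694 and for Uck1 at 0.8583. The second Fgf21 probe had PBS 4 lowest as well, and the second Uck1 probe did not.

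PBS 3 was apart at the high end for Trib3, with a ratio of 0.9486, and for Slc25a37, with a ratio of 0.8647. Slc25a37 is among the 10 steadiest genes by its brightest probe, so its gap on that probe is small in size. What sets any of these livers apart was not tested.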

How the results depend on the processing

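No paired analysis was possible because only 1 group is described. The count of genes with an SD of 1 or more, 201, was the value that depended most on the settings. It was 69 with normexp background correction, 57 among genes above the median level of detected genes and 1409 with no filter on dim probes, where values near background enter. With thresholds of 0.5 and 1.5 in place of 1 it was 2538 and 21. Leaving out 1 array gave 200 to 318, the highest without PBS 2. The count of genes with 1 liver apart, 657, was 159 when a range of at least 1 was also asked for. The count of detected genes stayed within 1.5 times 12329 in each setting, at 12343 to 12642 with 1 array left out, and the count of lists with a median above 0 was 28 to 37. The level of a list moved by more than its SD for 50 of 50 lists when the percentile was taken over detected probes, which lowered all genes by 1.93 to 2.06, for 32 with the median over probes and for 24 with normexp. Centring on the median shifted PBS 4 by 0.34 and the other arrays by -0.05 to -0.16. The highest array of a list's median was the same in all settings of scaling, background and probe choice for 15 of 50 lists and the lowest for 20. Ranges between livers of dim genes depend on the background, and saturated probes give lower bounds.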
